A study of Rattus norvegicus with 2 samples.

Results

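The genes described here encode components of the basement membrane and the integrins, the cell surface receptors that bind them. They were taken by name: every array probe whose annotated symbol begins with Col4a, Lama, Lamb or Lamc and a digit, or with Itga or Itgb and a digit or letter, together with Col15a1, Col17a1, Col18a1, Nid1, Nid2, Hspg2, Agrn and Npnt. This gave 72 of the 40012 probes and 46 of the 15610 named genes. Of these, 18 were matrix components and 24 were integrin subunits. The other 4 were taken in by their annotated names only and are neither: Cert1, annotated as Col4a3bp, Itgb1bp1, Itgb1bp2 and Itgb3bp. No probe was dropped for low signal, since the table holds ratios and no intensities. Col17a1, Hspg2 and Npnt, and the family members Col4a6, Lama4, Lamb1, Itga2b and Itgax, were not analysed here.

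RNA of untreated rat lung cells, taken without culture and labelled with Cy3, was hybridised on 2 two-colour Agilent arrays. The control RNA on each array, labelled with Cy5, was mix1, in which cultured bone marrow cells (BMC) and cultured primary ear fibroblasts (PEF) of the rat were combined, both grown with fetal bovine serum. The lung group held 2 samples, replicates 1 and 2, and the question was which genes differ in expression between lung cells and the adult cells of mix1. Strain, age and sex are not given in the labels, and nothing says that the samples came from separate animals, so p-values measure the spread between these arrays, which may be technical. Mix1 entered as 1 RNA, which leaves out its own spread, and the number of arrays, without a dye swap, limits the precision. The deposited values were read as log2 ratios of lung over mix1. That direction is likely and not stated outright: it follows the design text and 6 genes known from lung epithelium, Sftpc, Sftpa1, Sftpb, Sftpd, Scgb1a1 and Ager, whose log2 ratios run from 3.94 to 7.02. Were the sign the other way, higher and lower would change places throughout.

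A basement membrane is a thin sheet of matrix under epithelia and endothelia and around muscle and fat cells. Laminins, each a trimer of an alpha, a beta and a gamma chain, and collagen IV form its networks, and nidogens and heparan sulfate proteoglycans such as agrin join them. Integrins are dimers of an alpha and a beta subunit that anchor cells to this sheet or to other matrix, and some of them bind receptors on other cells. In the alveolus, the basement membranes of epithelium and capillary endothelium are fused over much of the gas exchange surface.

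Arrays agreed closely for these genes. The median absolute difference between the replicates was 0.063 on the log2 scale over the 72 probes, and 6 probes differed by more than 0.3. No probe had opposite signs in the replicates. In limma's moderated test against a ratio of 0, with Benjamini-Hochberg adjustment over all genes and a threshold of 0.05, 22 of the 46 genes (47.8%) were higher and 21 (45.7%) lower in lung. The 22 include Col4a5 and Itga6, whose probes went in opposite directions, and without these genes 20 were higher. Among all 15610 genes, 32.9% were higher and 49.7% lower by this test, together 82.7%, so a call carries little by itself. With each array's median subtracted, 38.5% of all genes were higher and 38.0% lower, against 23 and 19 of the members, so the excess of lower calls among all genes depends on how the ratios are centred. A fold rule is therefore given beside it: a gene counts as 2-fold changed where its log2 ratio is at least 1, or at most -1, in both arrays. By this rule 14 members (30.4%) were higher and 13 (28.3%) lower, against 16.5% and 15.8% of all genes. The median log2 ratio of the members was 0.02 and that of all genes was -0.22. Members thus lay on both sides, with 27 of 46 (58.7%) past 2-fold against 32.3% of all genes.

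The collagen IV pairs Col4a3 with Col4a4 and Col4a1 with Col4a2 had ratios of opposite sign. No direction is given for Col4a5, whose probes were opposed. Col4a3 and Col4a4, which together with Col4a5 form the network known from alveolar and glomerular basement membranes, were higher in lung. Col4a1 and Col4a2, the chains of the widespread network, were lower. The Col4a3 log2 ratio was 3.55 in replicate 1 and 3.68 in replicate 2, a mean of 3.61 ± 0.09 (SD, n = 2), or 12.2-fold (limma adjusted p 0.00118). For Col4a4 it was 4.09 and 3.33, a mean of 3.71 ± 0.54, or 13.1-fold (limma adjusted p 0.00530). Its arrays lay further apart than those of any other collagen IV chain, and both were above every value of Col4a1 and Col4a2. Col4a2 lay at -2.53 and -2.45, a mean of -2.49 ± 0.06, or 5.60-fold lower. Col4a1 lay at -0.86 and -0.82, a mean of -0.84 ± 0.02 over 2 probes that differed little from each other, and it did not reach 2-fold in either array.

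Collagen IV genes lie head to head in pairs, and the starts of both pairs measured here are shown because the partners had ratios of the same sign. The sequences are RefSeq promoter windows of the rat assembly GRCr8, 250 bases before to 50 bases after each gene's start, written from the gene's own strand. All 4 genes were matched by symbol. Capitals mark the CCAAT box, spelled CCAAT, and the GC box, spelled GGGCGG, each also where its reverse complement is printed. A TATA box, spelled TATAAA, was searched as well on both strands. No match overlaps another.
Col4a1, chr16:84885347-84885646, plus strand: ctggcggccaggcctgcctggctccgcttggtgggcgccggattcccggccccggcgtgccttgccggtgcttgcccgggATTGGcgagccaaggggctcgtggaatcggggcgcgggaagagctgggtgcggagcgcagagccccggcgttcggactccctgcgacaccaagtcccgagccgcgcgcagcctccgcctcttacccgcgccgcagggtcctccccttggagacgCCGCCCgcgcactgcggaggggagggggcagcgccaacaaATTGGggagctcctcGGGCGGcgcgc
Col4a2, chr16:84885471-84885770, minus strand: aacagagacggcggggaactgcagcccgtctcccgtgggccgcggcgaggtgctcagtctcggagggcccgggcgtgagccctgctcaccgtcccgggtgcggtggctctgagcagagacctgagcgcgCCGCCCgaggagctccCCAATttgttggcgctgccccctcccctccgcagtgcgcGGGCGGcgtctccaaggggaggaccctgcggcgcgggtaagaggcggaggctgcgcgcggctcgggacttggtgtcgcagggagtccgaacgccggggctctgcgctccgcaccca
Col4a3, chr9:91323740-91324039, plus strand: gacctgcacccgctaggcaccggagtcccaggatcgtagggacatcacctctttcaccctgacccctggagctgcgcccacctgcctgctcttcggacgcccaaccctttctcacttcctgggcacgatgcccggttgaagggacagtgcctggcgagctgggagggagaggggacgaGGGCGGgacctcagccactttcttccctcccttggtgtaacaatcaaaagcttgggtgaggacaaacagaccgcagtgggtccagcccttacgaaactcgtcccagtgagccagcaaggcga
Col4a4, chr9:91323528-91323827, minus strand: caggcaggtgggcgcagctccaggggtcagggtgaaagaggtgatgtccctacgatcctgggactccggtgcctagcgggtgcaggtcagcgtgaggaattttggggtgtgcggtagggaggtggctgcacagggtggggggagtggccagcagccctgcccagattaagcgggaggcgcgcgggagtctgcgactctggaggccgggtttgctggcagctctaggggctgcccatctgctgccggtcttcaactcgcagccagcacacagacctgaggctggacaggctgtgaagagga

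The start sites of Col4a1 and Col4a2 are 77 bases apart and their windows share 176 bases, whereas those of Col4a3 and Col4a4 are 413 bases apart and share 88. The Col4a1 window holds 2 CCAAT boxes and 2 GC boxes and the Col4a2 window 1 and 2. Of these, 1 CCAAT box and both GC boxes are the same letters read from opposite strands. In the Col4a3 window there is 1 GC box, and the Col4a4 window holds none of the motifs. No TATA box lies in any of the 4 windows. Over 33469 promoter windows of 300 bases, 37.5% hold a CCAAT box, 33.1% a GC box and 14.2% a TATA box. The share of G and C is 75.0% for Col4a1, 73.7% for Col4a2, 62.0% for Col4a3 and 65.3% for Col4a4. These matches are a description of the letters in the windows.

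Probes of Col4a5 went in opposite directions. The probe annotated to an Ensembl transcript lay at 1.73 in replicate 1 and 1.68 in replicate 2. The probe annotated to a RefSeq transcript lay at -1.34 and -1.19. Each probe alone passed limma's test (adjusted p 0.00126 and 0.00274 over all named probes). Their average, 0.22 ± 0.03, passed as higher (limma adjusted p 0.0213) and describes neither probe, so no direction is given for Col4a5. With the lower of the probes standing for the gene, its ratio was -1.27.

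**Figure D1:**
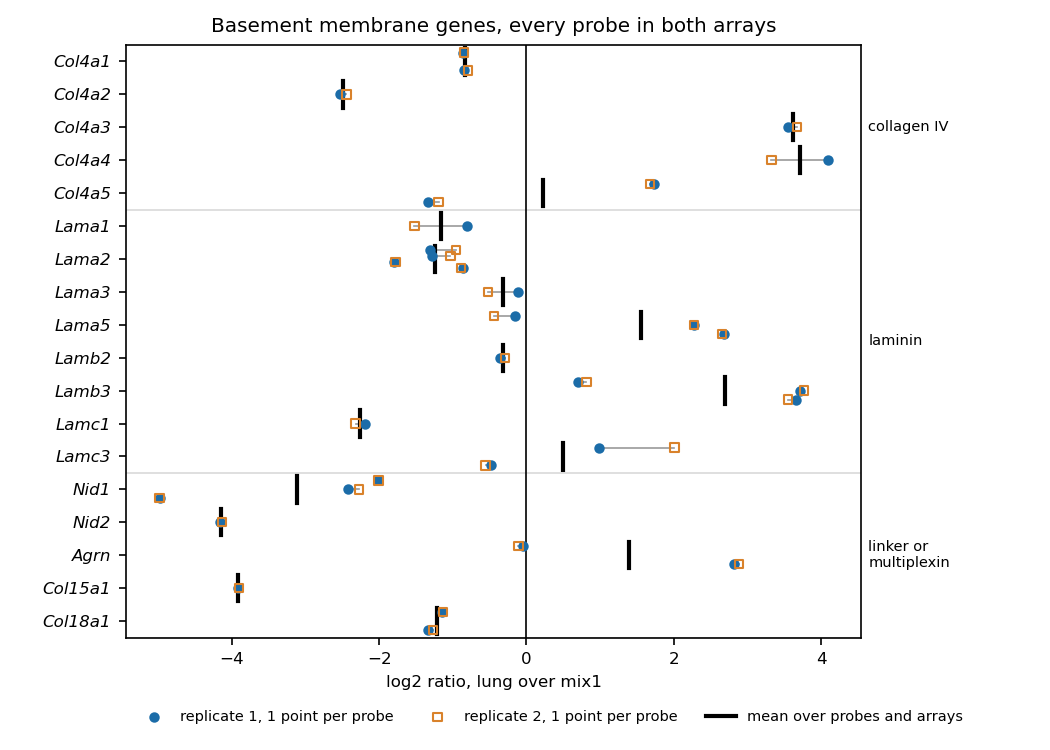
Log2 ratio of lung over mix1 for each probe of the 18 basement membrane genes, with replicate 1 as filled circles, replicate 2 as open squares, a grey line joining them, and a black bar for the mean over probes and arrays. Col4a3 and Col4a4 lie above 3, both nidogens, Col15a1, Lamc1 and Col4a2 below -2, and the probes of Col4a5, Lama5, Lamb3, Lamc3, Agrn and Nid1 stand well apart.

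Among the laminins, Lamb3 and Lama5 were higher and Lamc1 was lower. Among the 8 laminin genes there were 2 higher, 4 lower and 2 without a call, with a median log2 ratio of -0.32. The share that was lower (4 of 8) is near the 49.7% of all genes, and the median is near the -0.22 of all genes. Lamb3, the beta chain of the epithelial anchoring laminin, had the highest ratio at 2.69 and 2.71, a mean of 2.70 ± 0.02 (SD, n = 2), or 6.50-fold (limma adjusted p 0.00117). Of its 3 probes, 2 lay at 3.74 and 3.60 and the third at 0.76, so the average is well under what most of its probes gave. All 3 were above 0 in both arrays. Lama3, the alpha chain that pairs with Lamb3, lay at -0.11 and -0.52 on its single probe and did not pass (limma adjusted p 0.147).

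Lama5, the alpha chain of most mature epithelial and vascular basement membranes, had a mean of 1.55 ± 0.07, from 1.60 in replicate 1 and 1.50 in replicate 2. Its probes divided: 2 lay at 2.67 and 2.28 and the third at -0.30. All 3 are annotated to the same RefSeq transcript. Lama2, the alpha chain of muscle and peripheral nerve, was lower at -1.31 and -1.16, a mean of -1.24 ± 0.11. Its 4 probes ran from -1.79 to -0.87 and none was above 0 in either array. Lama1, the alpha chain of early embryonic basement membranes, lay at -0.80 and -1.52, the widest gap between arrays among the averages of laminin genes. It passed limma's test at an adjusted p of 0.0387 and was past 2-fold in replicate 2 only.

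Lamc1, the gamma chain of most laminin trimers, was 4.79-fold lower, at -2.20 and -2.32, a mean of -2.26 ± 0.09 (limma adjusted p 0.00141). Lamb2, the beta chain of synaptic and glomerular laminins, lay at -0.36 and -0.29. Its call as lower ended when each array's median was subtracted (-0.14, limma adjusted p 0.131). Lamc3 lay at 0.25 and 0.73 and did not pass (limma adjusted p 0.0888). It passed as higher with array medians subtracted (0.68, limma adjusted p 0.0211) and with its higher probe (1.50, limma adjusted p 0.0444), and as lower with its other probe (-0.52, limma adjusted p 0.00580). Its probes disagreed in sign, with 0.99 and 2.01 in the arrays for the higher and -0.48 and -0.55 for the lower. Chains that share a trimer therefore did not share a direction here: Lama5 and Lamb3 were higher while Lamc1 was lower. In bulk RNA of this kind, fewer cells of a type and less RNA per cell cannot be told apart.

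Of the 5 linkers and multiplexins, 4 were lower (80.0%, against 49.7% of all genes), and agrin was higher. Nid2 and Nid1, the nidogens that bind laminin to collagen IV, had mean log2 ratios of -4.15 and -3.11. Nid2 lay at -4.16 and -4.14, or 17.7-fold lower (limma adjusted p 0.00117), and 99.1% of all genes had a higher ratio. Nid1 lay at -3.14 and -3.09, or 8.65-fold lower, but its probes spread from -4.98 to -2.01. All 3 were below -2 in both arrays, so the direction did not depend on the probe. Col15a1, a collagen with heparan and chondroitin sulfate side chains at the outer face of basement membranes, lay at -3.92 and -3.90, or 15.0-fold lower. Col18a1, whose tail is the source of endostatin, lay at -1.24 and -1.20, or 2.33-fold lower, with both probes between -1.30 and -1.14.

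Agrn, the proteoglycan that clusters acetylcholine receptors at the neuromuscular junction and binds laminin, was the exception, at 1.39 in both arrays. That average joins unlike probes. The probe annotated to a RefSeq transcript lay at 2.82 and 2.88, and the probe annotated to a GenBank sequence at -0.05 and -0.11. Only the first passed limma's test (adjusted p 0.00111, against 0.160), and with the lower probe standing for the gene the ratio was -0.08 and was not called. Markers of cultured fibroblasts moved in the same direction as the nidogens and Col15a1: all 6 (Col1a1, Col1a2, Prrx1, Twist1, Thy1 and Pdgfrb) were lower, from -7.44 to -2.22, with a list median of -6.59 in replicate 1 and -6.25 in replicate 2. Their part in the result was not tested.

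Among the 4 integrin genes grouped as laminin-binding, Itgb4 and Itga3 were higher in lung, Itga7 was higher by 1 of its 2 probes, and the probes of Itga6 were opposed. All 4 gene averages passed the test as higher, against 32.9% of all genes, and 1 was past 2-fold. Itgb1, the beta partner of Itga3, Itga6 and Itga7, was lower, with a mean of -1.14. Itgb4, the subunit that pairs with Itga6 in hemidesmosomes, had 1.96 in replicate 1 and 1.82 in replicate 2, a mean of 1.89 ± 0.11 (SD, n = 2), or 3.71-fold (limma adjusted p 0.00183). Itga3, a laminin receptor of epithelium, lay at 0.44 and 0.41. Itga7, the laminin receptor of muscle, lay at 0.29 and 0.28, with probes at 0.51 and 0.07, and with the lower of them it was not called (limma adjusted p 0.163).

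Itga6 was the most divided integrin gene. Its probes lay at 1.85 and 1.79, at 1.12 and 0.94, and at -1.61 and -1.52 in replicates 1 and 2. Each passed limma's test alone (adjusted p 0.00127, 0.00491 and 0.00156 over all named probes). The middle and lowest probes are annotated to the same RefSeq transcript. The gene average of 0.43 ± 0.04 passed as higher and is that of no probe, so no direction is given for Itga6.

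**Figure D2:**
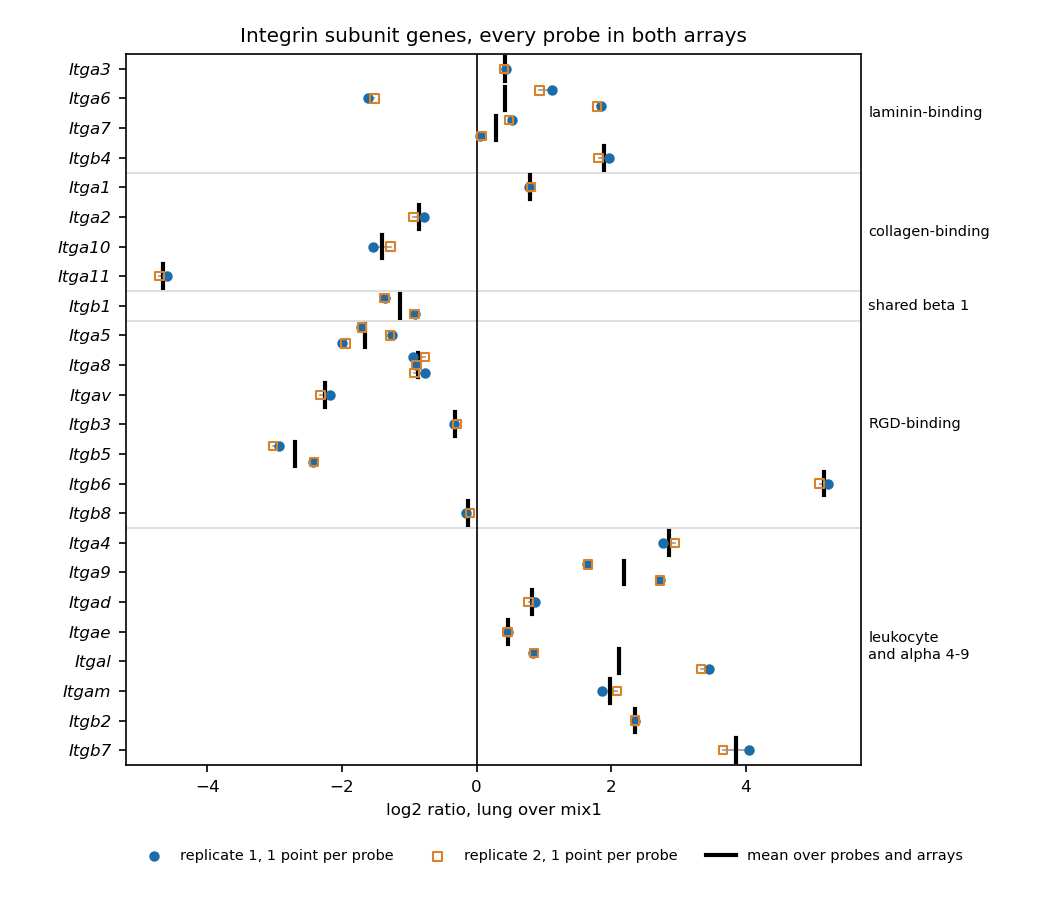
Log2 ratio of lung over mix1 for each probe of the 24 integrin genes, with replicate 1 as filled circles, replicate 2 as open squares, a grey line joining them, and a black bar for the mean over probes and arrays. Itgb6 at 5.16 and Itga11 at -4.66 are the extremes, all 8 genes of the leukocyte and alpha 4-9 group lie above 0, and the probes of Itga6 lie on both sides of 0.

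Among integrins that bind collagen, Itga11 was 25.3-fold lower. It lay at -4.61 and -4.71, a mean of -4.66 ± 0.08 (SD, n = 2; limma adjusted p 0.00117), the lowest ratio of all 46 genes. Itga11 is a receptor of fibroblasts for fibrillar collagen. Itga10, the collagen receptor of cartilage, lay at -1.54 and -1.28, and Itga2, that of platelets and epithelium, at -0.78 and -0.94. Itga1, a collagen IV receptor of endothelium, smooth muscle and resident T cells, went the other way, at 0.78 and 0.81, or 1.73-fold higher. Itgb1, the subunit shared by all 4 of them, lay at -1.14 and -1.15, or 2.21-fold lower, with probes at -1.37 and -0.92.

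Most integrins that bind the RGD motif of fibronectin, vitronectin and latent TGF-beta were lower, and Itgb6 was far higher. The 7 genes comprised 5 lower (71.4%, against 49.7% of all genes), 1 higher and 1 without a call, with a median of -0.86. Itgb6, the epithelial subunit that pairs with Itgav to activate latent TGF-beta, lay at 5.22 and 5.10, a mean of 5.16 ± 0.09 (SD, n = 2), or 35.7-fold higher (limma adjusted p 0.00117). Only 0.852% of all genes had a higher ratio. Its partner Itgav lay at -2.18 and -2.32, or 4.75-fold lower. The subunits of this dimer therefore had ratios of opposite sign in both arrays.

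Itgb5, another partner of Itgav, lay at -2.69 and -2.72, or 6.52-fold lower, with probes at -2.98 and -2.43. Itga5, the classical fibronectin receptor subunit, lay at -1.66 and -1.65, and its 3 probes ran from -1.97 to -1.27. For Itga8, a receptor of smooth muscle and lung mesenchyme for nephronectin, the values were -0.87 and -0.86 and the 3 probes ran from -0.89 to -0.84. These genes were lower by every probe. Itgb3, the partner of Itgav and of the platelet subunit Itga2b, lay at -0.34 and -0.29, and its call as lower ended when array medians were subtracted (-0.13, limma adjusted p 0.136). Itgb8, a further Itgav partner that activates latent TGF-beta, lay at -0.15 and -0.09 and did not pass (limma adjusted p 0.0671), and with array medians subtracted its sign turned to 0.07.

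The integrins of leukocytes, with Itga4 and Itga9, were all higher. All 8 genes passed the test as higher, against 32.9% of all genes, and 6 were past 2-fold higher in both arrays, against 16.5%. Their median log2 ratio was 2.15. Itgb7, the subunit of gut-homing and intraepithelial lymphocytes, lay at 4.05 and 3.67, a mean of 3.86 ± 0.27 (SD, n = 2), or 14.5-fold (limma adjusted p 0.00205). Itga4, its partner and that of Itgb1 in the receptor for VCAM-1, lay at 2.77 and 2.95, or 7.24-fold. Itgae, which joins Itgb7 to bind E-cadherin, lay at 0.47 and 0.46. Both partners of Itgb7 were higher, but with smaller ratios than Itgb7 itself.

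Itgb2, the common beta subunit of leukocytes, lay at 2.35 and 2.36, or 5.11-fold. Its alpha partners were also higher: Itgam of neutrophils and macrophages at 1.87 and 2.09, Itgal of lymphocytes at 2.15 and 2.10, and Itgad at 0.86 and 0.77. The Itgal average again joins unlike probes, 3.46 and 3.34 in the arrays for the probe annotated to a RefSeq transcript and 0.84 and 0.85 for that annotated to a GenBank sequence. Both were above 0. Itga9, a receptor for tenascin C and VCAM-1 that neutrophils, airway epithelium and lymphatic endothelium carry, lay at 2.18 and 2.19, with probes at 2.73 and 1.65.

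Leukocyte markers moved with these integrins. All 7 (Ptprc, Cd52, Coro1a, Cd79b, Cd3e, Cd3g and Lyz2) were higher, from 2.22 to 6.18, and the list median was 3.59 in replicate 1 and 3.33 in replicate 2. The pan-leukocyte gene Ptprc lay at 2.21 and 2.23. Beside Itgb6, Lamb3 and Col4a3, all 5 alveolar type 2 markers (Sftpc, Sftpb, Lamp3, Abca3 and Napsa) were higher, from 1.45 to 7.11, as were all 5 measured alveolar type 1 markers (Ager, Pdpn, Aqp5, Hopx and Akap5), from 0.64 to 6.33. Sftpc, Sftpb and Ager also served to read the direction of the ratios, so their sign is no separate result. All 6 endothelial markers (Pecam1, Cdh5, Tek, Kdr, Emcn and Cldn5) ran from 2.45 to 6.04 and all 6 platelet markers (Gp9, Gp1bb, Pf4, Ppbp, Gp5 and Treml1) from 1.08 to 3.37. Of 3 measured smooth muscle markers, Des was higher at 2.04, Cnn1 lower at -3.29, and Myh11 lay at -0.07 and did not pass. The part of these cell types in the results was not tested, and a ratio does not show which marker is near 0 in either RNA.

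**Figure D3:**
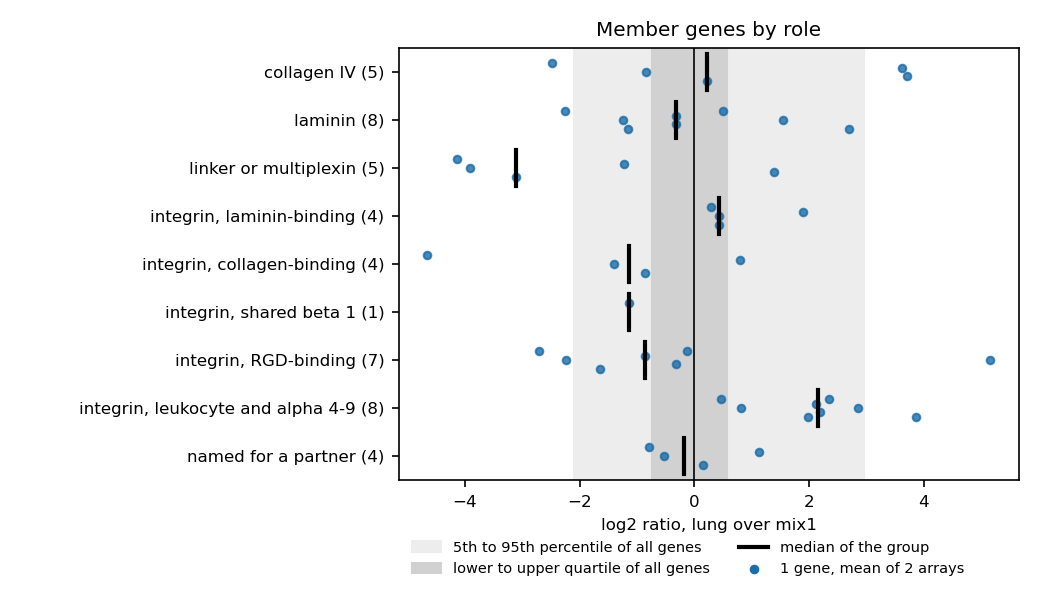
Mean log2 ratio of lung over mix1 for each of the 46 genes, 1 point per gene, arranged by role with the number of genes in brackets. Black bars are group medians and the shaded bands run from the lower to the upper quartile and from percentile 5 to percentile 95 of all 15610 genes. The leukocyte group (median 2.15) and the linkers and multiplexins (median -3.11) lie on opposite sides, and collagen IV and laminin genes spread over both.

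Of the 4 genes named for a partner, Cert1 was past 2-fold higher in both arrays and the others were not past 2-fold in either. Cert1, which carries ceramide from the endoplasmic reticulum to the Golgi, lay at 1.08 and 1.18, a mean of 1.13 ± 0.07 (SD, n = 2), or 2.19-fold. Itgb1bp1, a binder of the Itgb1 tail that restrains integrin activation, lay at 0.18 and 0.13. Itgb1bp2, the muscle protein melusin, lay at -0.49 and -0.58. Itgb3bp, a centromere protein, lay at -0.80 in both arrays. All 4 passed limma's test, the first pair as higher and the others as lower, but so did 82.7% of all genes in either direction.

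Several members with more than 1 probe gave a ratio that depended on the probe. Of 18 such genes, 9 had probes at least 2-fold apart in the same order in both arrays, against 1276 (33.9%) of all 3768 genes with several probes. For 7 of the 18 (38.9%) the gap was at least 4-fold: Agrn, Col4a5, Itga6, Itgal, Lama5, Lamb3 and Nid1. That is a larger share than the 416 of the 3768 with such a gap. In Col4a5 and Itga6, different probes were past 2-fold higher and past 2-fold lower, each in both arrays. Such opposed probes occurred in 34 of the 3768 genes, a smaller share than 2 of the 18 members. In the other 5 of the 7 members, the probes past 2-fold lay on the same side. The remaining 28 members had a single probe, so no such check was possible for them, Col4a3, Col4a4, Itgb6 and Itga11 included. Each of these gaps exceeded the difference between the arrays for the same probe.

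Genes of collagen modification, folding and cross-linking were lower in lung. The list joins enzymes with the collagen chaperone Serpinh1, the prolyl 3-hydroxylation partner Crtap and the collagen-binding matrix protein Sparc. The 18 measured genes had a median of -2.11, with 17 lower (94.4%, against 49.7% of all genes) and 1 higher. Of them, 13 were at least 2-fold lower in both arrays, against 15.8% of all genes. Loxl2, a lysyl oxidase that cross-links collagen IV, lay at -4.79 and -4.70, its relative Lox at -4.37 and -4.33, and the prolyl hydroxylase subunit P4ha3 at -4.35 and -4.23. The peroxidasin gene Pxdn, whose product forms the sulfilimine bonds of collagen IV, lay at -0.98 in both arrays. The exception was P3h2, a prolyl 3-hydroxylase that acts on collagen IV, at 2.36 and 2.55. In the list headed other basement membrane proteins, 16 of 24 genes were lower (66.7%, against 49.7% of all genes) and 5 higher. Not all proteins of this list are confined to basement membranes. The list median was -0.84. Thbs4 (-5.46 ± 0.01; SD, n = 2), Fbln2 (-5.17 ± 0.06) and Col6a2 (-3.52 ± 0.06) were the lowest, and Spock2 (5.92 ± 0.06), Ltbp4 (2.62 ± 0.07) and Tinagl1 (2.17 ± 0.23) the highest.

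A further list holds matrix receptors outside the integrin family, cell surface proteoglycans, the agrin receptor complex and the dystrophin-associated proteins, Dmd and Utrn of the cytoplasm included. Its 21 measured genes had a median of -0.33, and 33.3% were higher (7 genes) and 57.1% lower (12 genes). These values are near those of all genes (-0.22, 32.9% and 49.7%). The glypican Gpc3 (3.58 ± 0.02; SD, n = 2), Lrp4 (2.51 ± 0.01), which is the agrin receptor of muscle, and Bcam (2.46 ± 0.05), a receptor for the laminin chain Lama5, were the highest. Gpc1 (-4.31 ± 0.01), Sgcb (-2.88) and Sgcd (-2.88 ± 0.06), the latter pair from the sarcoglycan complex, were the lowest. Dystroglycan (Dag1) lay at -0.37 and -0.30. Of 4 measured hemidesmosome genes, 3 were lower (75.0%, against 49.7% of all genes). Plectin (Plec) led them at -1.13 and -0.81, in contrast to Itgb4. Krt5 lay at -0.08 and 0.08 and did not pass.

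Ligands of integrins were split by where they sit. The 11 ligands on cell surfaces had a median of 2.80, with 7 higher (63.6%, against 32.9% of all genes) and 3 lower. E-cadherin (Cdh1, 5.50 ± 0.16; SD, n = 2), Icam2 (4.15 ± 0.02) and Jam2 (3.45 ± 0.07) were the highest. The 24 ligands in matrix and plasma had a median of -2.59, with 19 lower (79.2%, against 49.7% of all genes) and 5 higher. The lowest were osteopontin (Spp1, -8.69 ± 0.01), tenascin C (Tnc, -7.37 ± 0.21) and Col1a1 (-7.25 ± 0.09), and fibronectin (Fn1) lay at -6.01 and -5.88. The higher genes of this list encode proteins of plasma or of platelets and endothelium: Fgg (5.43 ± 0.19), Vwf (4.63 ± 0.08), Vtn (3.83 ± 0.03), Fgb and Fga.

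Cytoplasmic partners of integrins showed no common direction. Of 34 activators and adhesion adaptors, 13 were higher, 18 lower and 3 did not pass. These shares, 38.2% higher and 52.9% lower, are near the 32.9% and 49.7% of all genes. The list median was -0.19, also near that of all genes. Actn1 (-3.26 ± 0.03; SD, n = 2), vinculin (Vcl, -2.28 ± 0.10) and Tgfb1i1 (-2.25 ± 0.11), proteins of focal adhesions and stress fibres, were the lowest. Among genes past the test, Tns2 (2.60 ± 0.02), Fermt3 (2.23 ± 0.09) and Apbb1ip (1.63 ± 0.01) were the highest, and the latter pair are integrin activators of blood cells. Parvg (1.76 ± 1.37) lay above Apbb1ip and did not pass (limma adjusted p 0.109). The kindlin of other tissues, Fermt2, lay at -0.26 and -0.23 and the talin Tln1 at -0.74 and -0.70. Of 13 membrane partners, 7 were higher (53.8%, against 32.9% of all genes) and 5 lower (38.5%, against 49.7%). Their median was 0.24. Cd36 (3.96 ± 0.04), Tspan8 (3.43 ± 0.03) and Tm4sf1 (1.15) were the highest, and Plaur (-1.97 ± 0.02), Cd82 (-1.37 ± 0.07) and Tspan4 (-1.34 ± 0.03) the lowest.

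**Figure D4:**
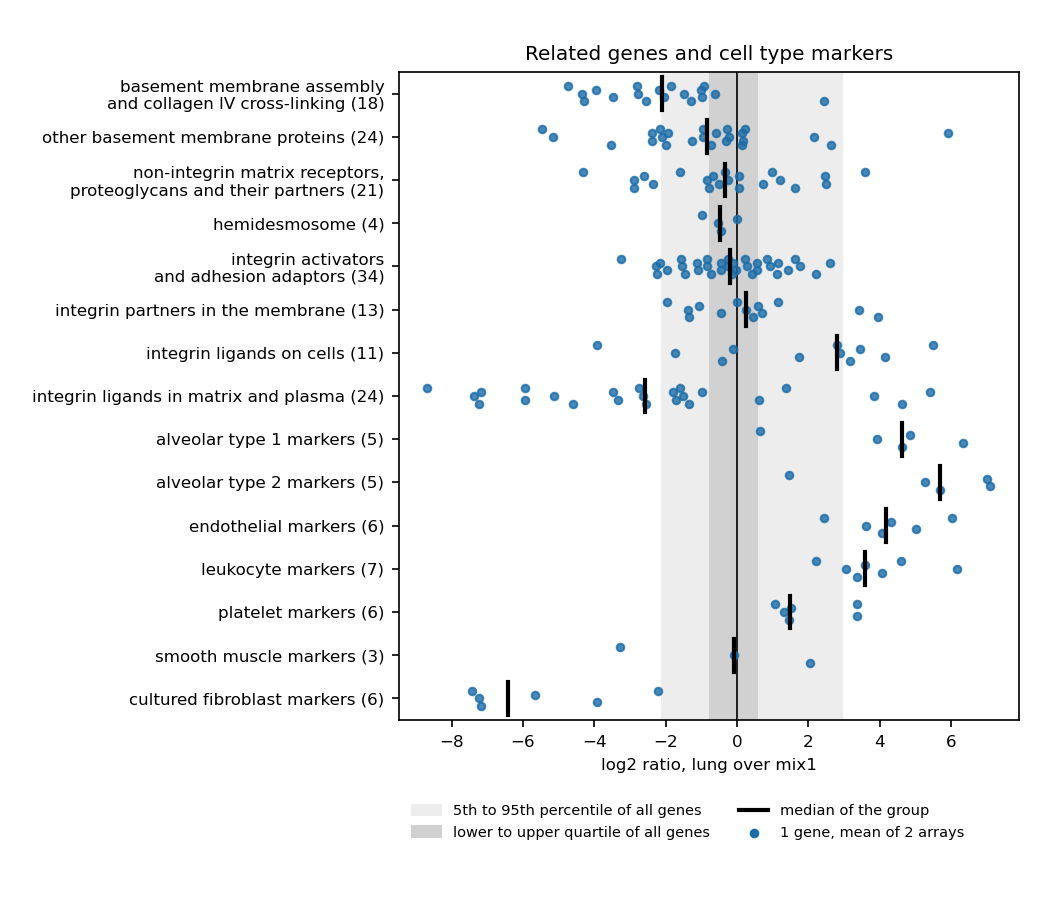
Mean log2 ratio of lung over mix1 for the genes related to basement membranes and integrins and for cell type markers, 1 point per gene, with the number of genes in brackets. Black bars are list medians and the shaded bands run from the lower to the upper quartile and from percentile 5 to percentile 95 of all 15610 genes. Genes of collagen modification, folding and cross-linking (median -2.11) and matrix ligands (median -2.59) lie mostly below 0. The former list carries the label basement membrane assembly and collagen IV cross-linking. Cell surface ligands (median 2.80) and markers of lung epithelium, endothelium and leukocytes lie mostly above 0.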

How the data were processed

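The authors deposited 1 value per probe and array, read here as log2 ratios between channels. Base 2 is an inference from the range, -11.74 to 9.09, too wide for base-10 logarithms of scanner signals. Per the submitters' processing notes, Agilent Feature Extraction was used; its version and how background, dyes and centring were handled: not given in the sources used here. The median probe lay at -0.16 (replicate 1) and -0.21 (replicate 2). No value is missing or 0, so the planned filter on such values was not run.

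Probe names came from GEO's annotation of the platform (20417 of 40012, each with 1 symbol; 19595 unnamed), and symbols were updated through the gene table of assembly GRCr8 by unversioned accession (16978 probes), current symbol (3044) or synonym (387), with 8 kept. Genes are means of their probes. They were tested with limma 3.58.1 (R 4.3.3) by an intercept fit and eBayes, with 1 residual and 1.28 prior degrees of freedom. The fit was tested on simulated data.

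All 46 members are described. Of each related list, up to 3 highest and 3 lowest genes past the test are named, and Pxdn, Dag1, Krt5, Fn1, Fermt2, Tln1, Fga and Fgb were added after their values were seen. Members and lists were chosen with earlier results of these data known, so their counts are no independent evidence. The alternatives comprised centring and scaling of the arrays, robust eBayes, treat, other choices of probe, single probes, an adjusted p under 0.01, annotation symbols, and leaving out each array or genes with opposed probes.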

Additional observations from a re-analysis of the deposited data

How the results depend on the processing

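Of the counts of 22 higher and 21 lower genes, and of 14 and 13 past 2-fold in both arrays, those that changed by more than 1.5 times did so under a stricter test or another unit. Against a 2-fold change, limma's treat called 13 of the 46 higher and 10 lower, against 13.7% and 12.0% of all genes. Counted as single probes (72 in place of 46 genes), 37 were lower and 22 at least 2-fold lower. Without replicate 1 or replicate 2, 14 genes were past 2-fold higher and 13 to 14 lower, with no test in a single array. Of the single genes, Itgb8 turned to 0.07 with array medians subtracted, which raised the median gene by 0.19, and Agrn to -0.08, Col4a5 to -1.27 and Lamc3 to -0.52 with the lower middle probe. Lamc3 gained a call as higher with array medians subtracted (0.68) and with its largest probe (1.50). At an adjusted p under 0.01, 6 of 46 genes lost their call. That left 19 higher and 18 lower, against 25.8% and 35.5% of all genes. Scaling between arrays, robust eBayes and annotation symbols changed no call of a member gene. No paired analysis was possible because there is 1 group of samples. Signal over background cannot be judged from ratios, so ratios of genes that are dim in a channel carry an error that is not shown.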
